A study of Homo sapiens with 6 samples.

Results

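Guidance genes of migrating cortical interneurons were examined for binding of MYT1L, a neuronal DNA-binding protein with zinc fingers, in the human cell line H1 at its D30 time point. The set had 8 genes of the 20033 protein-coding genes on chromosomes 1 to 22, X and Y. They are the receptors CXCR4, ACKR3 and ERBB4, the ligands CXCL12, NRG1, NRG3 and RELN, and the adaptor DAB1. A peak was counted for a gene when it overlapped the gene body or the 5 kb beyond either end, by the RefSeq gene table of GRCh38. Occupancy was measured by CUT&RUN, in which an antibody directs a nuclease to a chromatin protein and the released DNA is sequenced. MYT1L antibody was used for 4 libraries, and 2 others used IgG, which has no chromatin target and serves as the negative control. All 6 came from H1 cells titled WT, with no treatment named. The design text calls them cortical interneurons, differentiated from this embryonic stem cell line, but every sample's own label still reads embryonic stem cells. All libraries are of a single cell line, and nothing in the labels says that they came from separate differentiations, so spreads and p-values may be technical. Cell identity was not checked here, since peak lists hold no expression values.

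Interneurons are born in the ventral forebrain and travel tangentially into the cortex. The chemokine CXCL12 acts on them through CXCR4, with ACKR3 taking up the ligand, and the receptor tyrosine kinase ERBB4 responds to the neuregulins NRG1 and NRG3. RELN encodes Reelin, a secreted glycoprotein that positions neurons and acts through lipoprotein receptors and the intracellular adaptor DAB1.

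The sequences before the starts of 5 of the genes show where the peaks lay and how the promoters differ in base composition. Each line gives the 250 bases 5′ of the gene's most upstream start in the RefSeq promoter table of GRCh38.p14, 5′ to 3′ on the gene's strand. In RELN, DAB1 and NRG3, capitals mark bases inside a peak of at least 3 MYT1L libraries. In CXCR4 capitals mark bases inside the peak of MYT1L replicate 4, and in ERBB4 no base lay in a peak.
RELN, chr7:103989659-103989908, - strand: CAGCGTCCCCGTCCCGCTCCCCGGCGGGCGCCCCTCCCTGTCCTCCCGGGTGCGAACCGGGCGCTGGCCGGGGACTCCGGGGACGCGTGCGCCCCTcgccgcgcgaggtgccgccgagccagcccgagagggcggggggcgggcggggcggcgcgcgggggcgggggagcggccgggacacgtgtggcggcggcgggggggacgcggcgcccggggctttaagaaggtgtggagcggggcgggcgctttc
DAB1, chr1:58546727-58546976, - strand: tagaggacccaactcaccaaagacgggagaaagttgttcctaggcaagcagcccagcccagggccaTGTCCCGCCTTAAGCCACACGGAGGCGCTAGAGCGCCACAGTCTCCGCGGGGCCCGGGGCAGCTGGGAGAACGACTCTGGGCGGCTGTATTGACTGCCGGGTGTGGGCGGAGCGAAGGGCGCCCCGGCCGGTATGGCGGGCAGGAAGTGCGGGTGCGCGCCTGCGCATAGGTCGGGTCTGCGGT
NRG3, chr10:81874944-81875193, + strand: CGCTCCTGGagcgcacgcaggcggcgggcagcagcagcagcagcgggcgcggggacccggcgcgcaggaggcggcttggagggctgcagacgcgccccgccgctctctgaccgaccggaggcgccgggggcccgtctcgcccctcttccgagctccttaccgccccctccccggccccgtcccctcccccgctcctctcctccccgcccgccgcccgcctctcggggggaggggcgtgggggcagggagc
ERBB4, chr2:212538803-212539052, - strand: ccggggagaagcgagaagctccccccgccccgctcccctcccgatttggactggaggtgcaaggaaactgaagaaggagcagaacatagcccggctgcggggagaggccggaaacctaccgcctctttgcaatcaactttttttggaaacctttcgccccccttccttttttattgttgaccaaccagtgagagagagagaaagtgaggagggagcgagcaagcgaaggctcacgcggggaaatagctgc
CXCR4, chr2:136118150-136118399, - strand: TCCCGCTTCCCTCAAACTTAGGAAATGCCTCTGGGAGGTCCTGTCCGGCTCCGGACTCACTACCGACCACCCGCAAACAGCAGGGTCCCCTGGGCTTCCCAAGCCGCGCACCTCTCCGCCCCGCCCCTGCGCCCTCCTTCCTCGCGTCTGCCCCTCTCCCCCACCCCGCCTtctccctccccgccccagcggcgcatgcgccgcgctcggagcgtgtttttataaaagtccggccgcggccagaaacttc
The upstream sequence of RELN holds 43 CpG dinucleotides, that of NRG3 33, and those of CXCR4, DAB1 and ERBB4 24, 23 and 14. No entry for NRG1 or ACKR3 was matched in the promoter table. CXCL12 had a start there, but its sequence is not shown.

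The ligands NRG1 and RELN and the adaptor DAB1 carried peaks in every MYT1L library and none in IgG. DAB1 had 7, 3, 3 and 8 peaks in MYT1L replicates 1 to 4, NRG1 had 2, 2, 4 and 5, and RELN had 2, 1, 1 and 2. NRG3 had 1, 1, 2 and 2 peaks, but also 1 in IgG replicate 2, so its groups overlapped. ERBB4 had 2, 0, 2 and 6. The short chemokine genes had peaks only in MYT1L replicate 4, 2 each at CXCR4 and ACKR3 and 1 at CXCL12. Their means over the MYT1L libraries were 0.5, 0.5 and 0.25 peaks, beside a median of 0.75 over genes under 100 kb. Peak numbers per gene differed between MYT1L and IgG libraries by 5.25 for DAB1, 3.25 for NRG1 and 1.5 for RELN (exact permutation test over libraries, two-sided, p = 0.133 each, adjusted p = 0.436 over all protein-coding genes). With 4 libraries against 2, 0.133 is the smallest p this design allows. None of the 20033 genes (0%) passed an adjusted p of 0.05, and 0 had an unadjusted p under 0.05. In all, 30.6% of protein-coding genes had more peaks in every MYT1L library than in either IgG library. Among the 315 genes of at least 500 kb the share was 63.2%, beside 3 of the 5 members of that length.

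**Figure D1:**
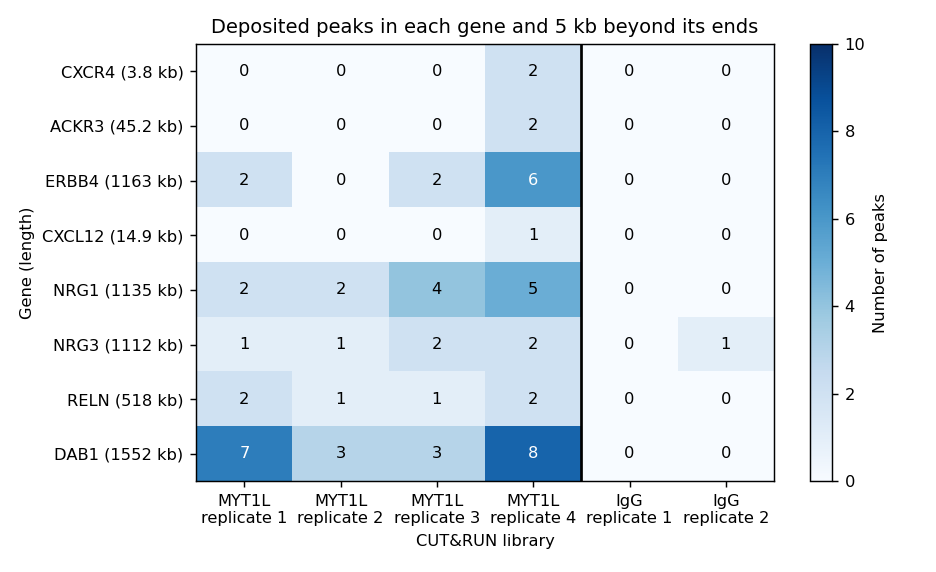
Number of deposited peaks (cells of the grid, with colour) in each gene and the 5 kb beyond its ends (rows, gene length in kb) for the 4 MYT1L and 2 IgG libraries (columns). DAB1, NRG1, RELN and NRG3 have peaks in every MYT1L library, and the 3 shortest genes only in replicate 4.

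Over the 8 genes together, MYT1L replicates 1 to 4 had 14, 7, 12 and 28 peaks, and IgG replicates 1 and 2 had 0 and 1. Depth is not stated, and the libraries differed. The lists held 12310 to 30086 peaks in MYT1L and 976 to 998 in IgG libraries. The genome-wide background estimated from the deposited fold and p was 0.421 to 1.18 overlapping fragments per position in MYT1L and 0.190 to 0.329 in IgG libraries. Thinned until this background equalled that of IgG replicate 2, the MYT1L libraries were expected to keep 0.885, 2.49, 1.06 and 6.75 of these peaks, against 0 and 1 in the IgG libraries. MYT1L replicates 1 and 3 then lay close to the 1 peak of IgG replicate 2. Expected numbers beside 1 observed peak give no order between these libraries. Thinning equalised only the estimated background. Whole lists were then expected to hold 2449 to 8179 peaks in MYT1L and 738 to 998 in IgG libraries. For DAB1 the thinned expectation was 0.430, 1.53, 0.319 and 2.44 peaks, and for NRG1 it was 0.0914, 0.536, 0.301 and 2.18, with 0 in both IgG libraries. For RELN it was at most 0.263, so peaks of that strength would mostly be missed at the background of IgG replicate 2.

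**Figure D2:**
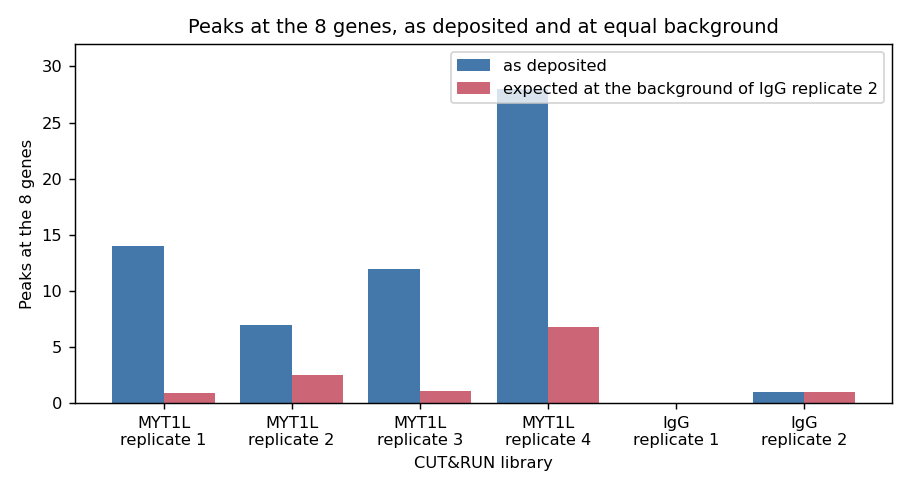
Peaks at the 8 genes (vertical axis, number) in each library, from the deposited lists and after thinning (expected number) to the estimated background of IgG replicate 2. MYT1L replicate 4 keeps 6.75 expected peaks, while replicates 1 and 3 fall to 0.885 and 1.06, near the 1 peak of IgG replicate 2.

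Peaks of the MYT1L libraries that overlapped by at least 1 bp were joined into regions, and a region was called reproducible when 3 or more of these libraries contributed. The 8 genes held 33 regions. Of these 20 came from 1 library, 6 from 2, 1 from 3 and 6 from all 4. MYT1L replicate 4 supplied 15 of the 20 single-library regions, replicate 1 supplied 3, and replicates 2 and 3 supplied 1 each. Reproducible regions without an IgG peak numbered 6 and lay at 3 of the 8 genes, 3 at DAB1, 2 at NRG1 and 1 at RELN. The same was found at 48% of all protein-coding genes. By length, it was found at 75.2% of genes of at least 500 kb, beside 3 of 5 such members, and at 44.1% of genes under 100 kb, beside 0 of the 3 members CXCR4, ACKR3 and CXCL12. The members' shares were no higher than those of genes of like length. A single MYT1L library was also left out, with 2 of the other 3 sufficing. The number of members with such a region was then 5 without replicate 1 and 5 without replicate 2, with ERBB4 and NRG3 added. It was 4 without replicate 3, with ERBB4 added, and 3 without replicate 4. The number of regions was 9, 12, 9 and 6 without replicates 1 to 4 in turn.

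The median gene had 0.75 peaks per MYT1L library under 100 kb and 2.5 at 500 kb and longer. Peaks per 100 kb were lower in the longer class, so they were compared only within a length class. DAB1 had on average 0.336 MYT1L peaks per 100 kb, RELN and NRG1 0.284 each, ERBB4 0.213 and NRG3 0.134. The median over the 315 long genes was 0.329, and 51.8% of them had a lower density than DAB1. CXCR4, 3.8 kb long in a window of 13.8 kb, had 3.62 per 100 kb, all from replicate 4. CXCL12 had 1.003 and ACKR3 0.905, beside a median of 2.07 over genes under 100 kb. By regions, CXCR4 and ACKR3 had 2 each and CXCL12 had 1, beside a median of 1 over genes under 100 kb. DAB1 stood higher by number of reproducible regions, which was not scaled to length within the class. Of the long genes, 88.3% had fewer than its 3, 65.7% fewer than the 2 of NRG1 and 24.8% fewer than the 1 of RELN. DAB1 is the longest of the 8 genes, at 1552 kb, and 1 of its 3 regions lies at a start shared with OMA1.

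**Figure D3:**
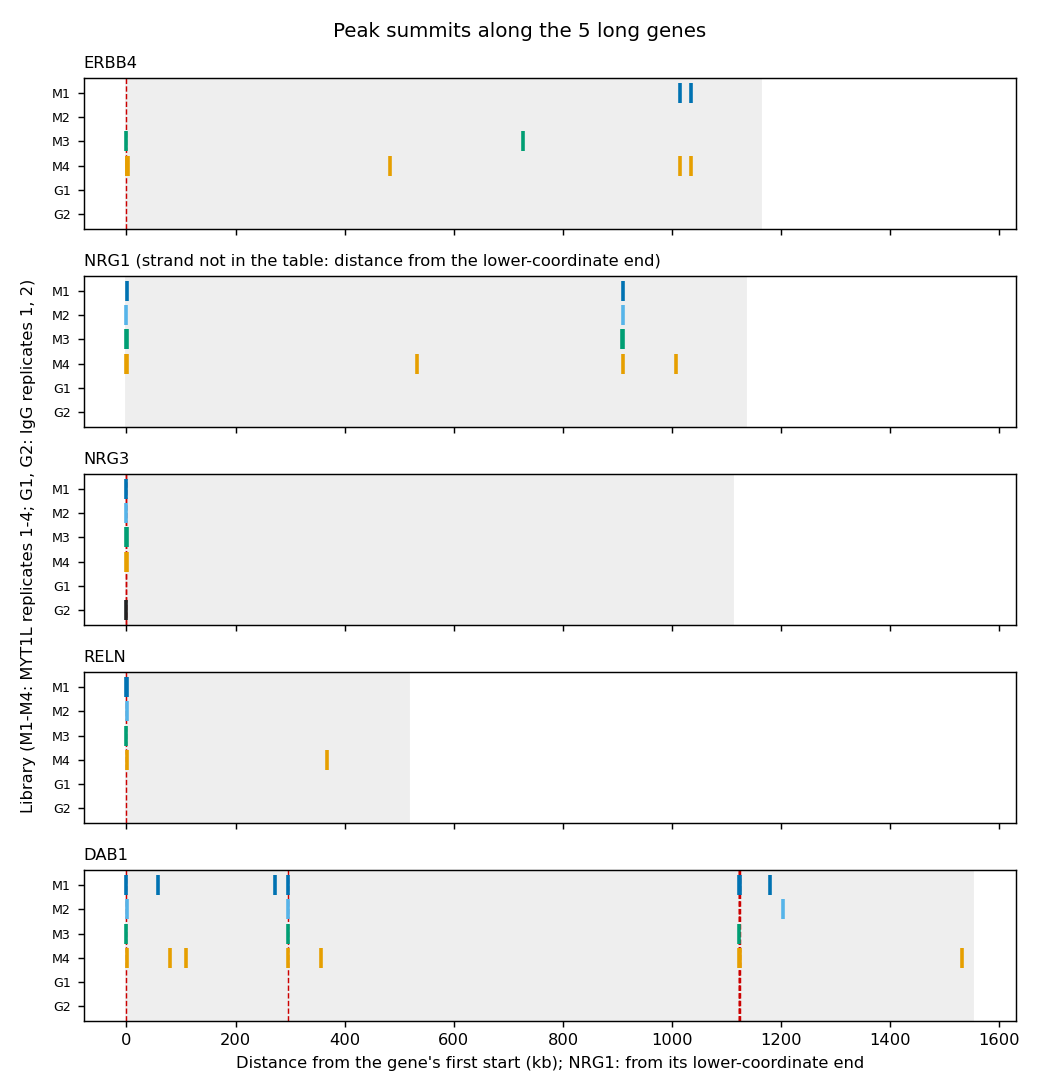
Peak summits (ticks) along ERBB4, NRG1, NRG3, RELN and DAB1 by library (rows), as distance in kb from the gene's first start (for NRG1 from its lower-coordinate end), with gene bodies in grey and listed starts as dashed lines. Summits shared by several libraries stack at or near starts in RELN, NRG3 and DAB1, while most others are from MYT1L replicate 4 or 1.

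DAB1, the adaptor that is phosphorylated when Reelin binds its receptors, had the most regions, 12. The gene spans 1552 kb on chromosome 1, from 56994778 to 58546726, on the minus strand, and the promoter table lists 6 starts for it. Its 3 reproducible regions lay at 3 separate places with listed starts. The most upstream, from 58546256 to 58547094, had folds over background of 6.62, 5.63, 5.80 and 12.5 in replicates 1 to 4 (7.63 ± 3.25, SD, n = 4). This start at 58546726 is also that of OMA1, which encodes a mitochondrial protease, so the region cannot be assigned to DAB1 alone. Peaks of all 4 libraries shared 454 bp of it. The second region, from 58249710 to 58250683, covered the start at 58250503, 296 kb into the gene, through peaks of replicates 2 and 4. Its folds were 5.36, 6.86, 5.35 and 8.44 (6.50 ± 1.47, SD, n = 4). Here the strongest summits of the 4 libraries lay within 29 bp of each other, 336 to 365 bp downstream of the start, the tightest agreement of any region in all 4 libraries at these genes. The third, from 57423543 to 57424860, covered starts at 57424060, 57424306 and 57424754, 1122 to 1123 kb into the gene, that at 57424754 only through replicate 3. This region had folds of 4.91, 5.97 and 7.31 in replicates 1, 3 and 4 (6.06 ± 1.20, SD, n = 3). Replicate 2, the library with the fewest peaks, had none there. A further region from 57422318 to 57422710 was seen in replicates 1 and 4, 402 bp from the last listed start. The other 8 regions of DAB1 came from 1 library each and lay at least 23814 bp from any listed start.

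RELN, on chromosome 7 from 103471789 to 103989658 and on the minus strand, had 1 region in all 4 libraries and 1 in replicate 4 alone. The shared region, from 103989068 to 103990135, covered the start at 103989658 through peaks of replicates 3 and 4. Its folds were 5.04, 5.98, 5.49 and 6.88 (5.85 ± 0.791, SD, n = 4), the smallest spread among the 6 regions of all 4 libraries. The libraries did not share a common base in it. At most 3 libraries covered any position, and the strongest summits spread over 670 bp. The summit of replicate 3 lay 279 bp upstream of the start, and those of replicates 4, 2 and 1 lay 319, 391 and 308 bp downstream. Replicate 1 also had a peak with its summit 324 bp upstream. In the RELN sequence above, the 96 capitals at the 5′ end are the bases shared by replicates 1, 3 and 4. The −log10 q of the strongest peaks was 4.35, 4.95, 5.33 and 8.64, so a minimum of 5 left 2 libraries and ended the call.

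NRG1, a neuregulin with several isoforms that binds ErbB receptors, spans 1135 kb of chromosome 8, from 31639245 to 32774046. Its strand and starts were not matched in the table, so positions are given from the lower-coordinate end. The region from 31639107 to 31639683 covered that end through peaks of replicates 2 and 4. It had folds of 4.98, 5.75, 6.42 and 8.22 (6.34 ± 1.38, SD, n = 4), and 119 bp were common to all 4 libraries. A neighbour from 31639892 to 31640548 had folds of 6.07 and 8.51 in replicates 3 and 4, with summits 7 bp apart. The third region, from 32548000 to 32549345, began 909 kb inside the gene and had folds of 6.14, 5.06, 6.84 and 10.4 (7.12 ± 2.33, SD, n = 4). It was the widest of the regions at these genes, at 1346 bp, though only 68 bp were common to all 4 libraries. Both other regions of NRG1 came from replicate 4 alone, with folds of 4.22 and 7.67.

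NRG3, a neuregulin ligand of ERBB4 on the plus strand of chromosome 10 from 81875194 to 82987179, had its peaks only at the start. The region from 81874302 to 81875202 had folds of 5.55, 5.09, 5.91 and 8.52 in replicates 1 to 4 (6.27 ± 1.54, SD, n = 4). IgG replicate 2 had a peak inside it, from 81874773 to 81875083, with a fold of 4.48 and a −log10 q of 2.09 from a pileup of 5 fragments. In the printed NRG3 sequence, this IgG peak covers the first 140 bases. The IgG fold was at percentile 17.3 of its own list, while the folds of MYT1L replicates 1 to 4 were at percentiles 69.7, 35.0, 71.3 and 81.7 of theirs. The lists differ in length, so these percentiles are not on a common scale. Thinned to the background of IgG replicate 2, MYT1L replicates 1 to 4 were expected to keep 0.124, 0.168, 0.169 and 0.921 peaks at NRG3. IgG replicate 2 had 1. A reproducible region with an IgG peak was found at 3.36% of all protein-coding genes and 7.3% of those of at least 500 kb. The region also covers the start of LOC124902549, a noncoding gene read in the opposite direction. The remaining region, from 81875469 to 81875988 in replicates 3 and 4, had folds of 3.81 and 3.96.

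**Figure D4:**
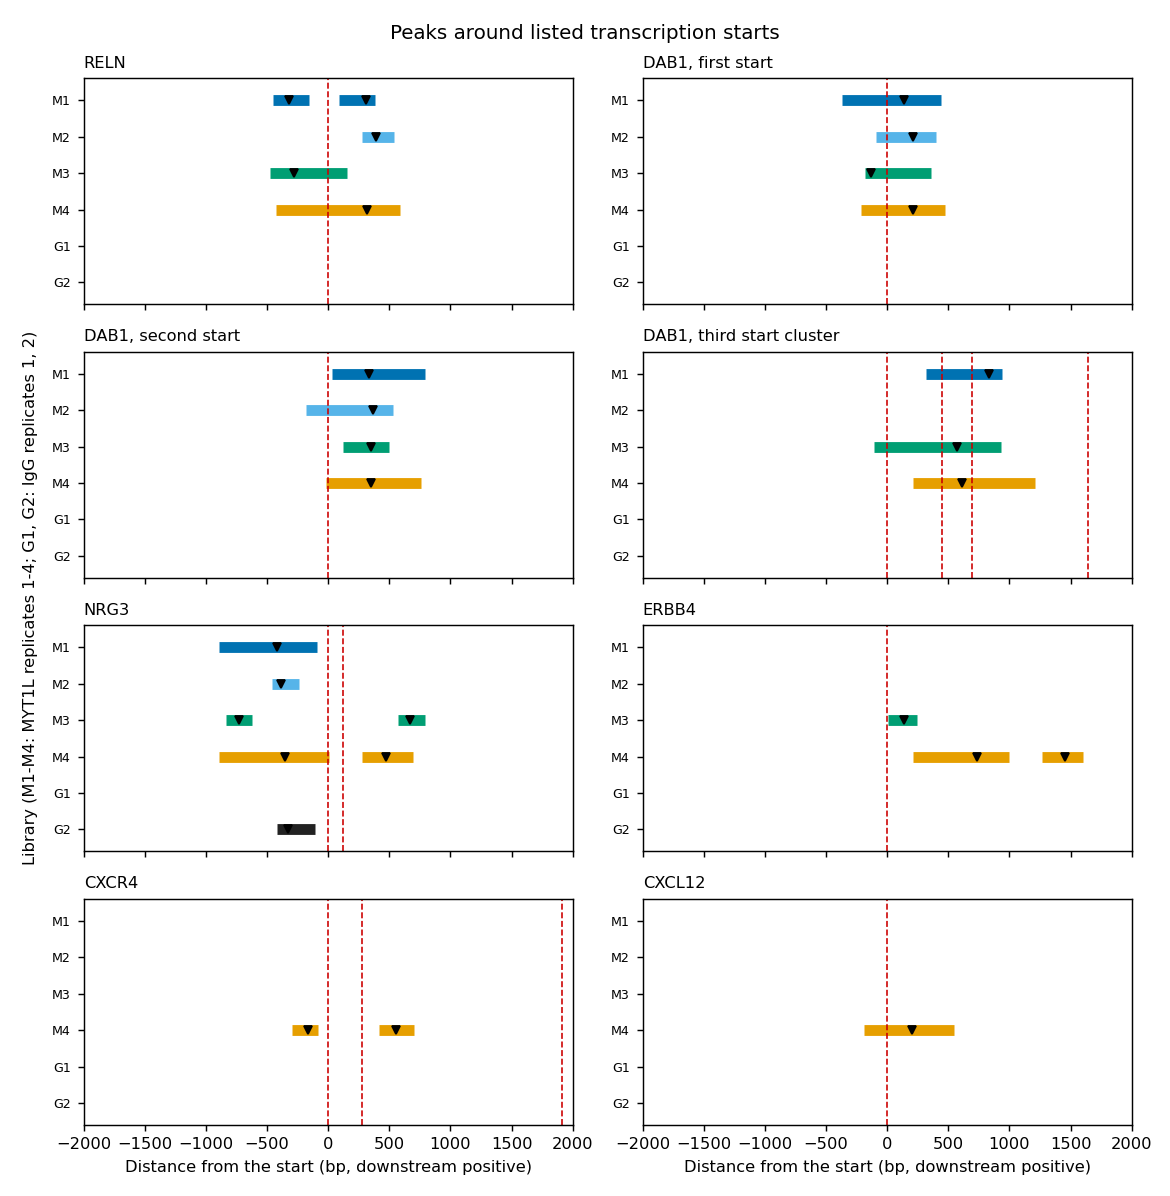
Peaks (bars) and summits (triangles) by library around listed starts (dashed lines), as distance in bp with downstream positive, for RELN, 3 places in DAB1, NRG3, ERBB4, CXCR4 and CXCL12. At the second DAB1 start the 4 summits lie 336 to 365 bp downstream, at RELN they lie on both sides, and at NRG3 the IgG replicate 2 peak lies under the MYT1L peaks.

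Among receptors, ERBB4 was the only one with a peak in more than 1 library. It spans 1163 kb of chromosome 2, from 211375717 to 212538802, on the minus strand. Near its start at 212538802, replicate 3 had a peak with a fold of 6.29 and its summit 140 bp downstream, and replicate 4 had one with a fold of 4.34 and its summit 733 bp downstream. These overlapped by 36 bp. The region they formed ended 11 bp short of the start, which is why no base of the ERBB4 sequence is in capitals. Replicate 4 had 2 further peaks, 2223 and 1263 bp from the start, with folds of 3.56 and 3.81. Far inside the gene, replicates 1 and 4 shared 2 regions with summits 1013812 to 1035119 bp downstream of the start. Replicate 1 had a fold of 5.49 at both and replicate 4 a fold of 5.28 at both, from pileups of 11 and 9 fragments. Another 2 regions came from 1 library each, and replicate 2 had no peak at ERBB4.

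CXCR4, the receptor for CXCL12, lies on chromosome 2 from 136114349 to 136118149. MYT1L replicate 4 had a peak with a fold of 6.50 and its summit 165 bp upstream of the first start, and another with a fold of 5.17 inside the gene. The first of these covers the 171 capitals of the CXCR4 sequence. CXCL12, on chromosome 10 from 44370165 to 44385097, had a peak across its start with a fold of 3.85, at percentile 8.29 by fold of the list of replicate 4. ACKR3, on chromosome 2 from 236537122 to 236582354, had peaks with folds of 4.20 and 5.13. Replicates 1, 2 and 3 and both IgG libraries had none at any of these 3 genes, and without replicate 4 their counts are 0.

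**Figure D5:**
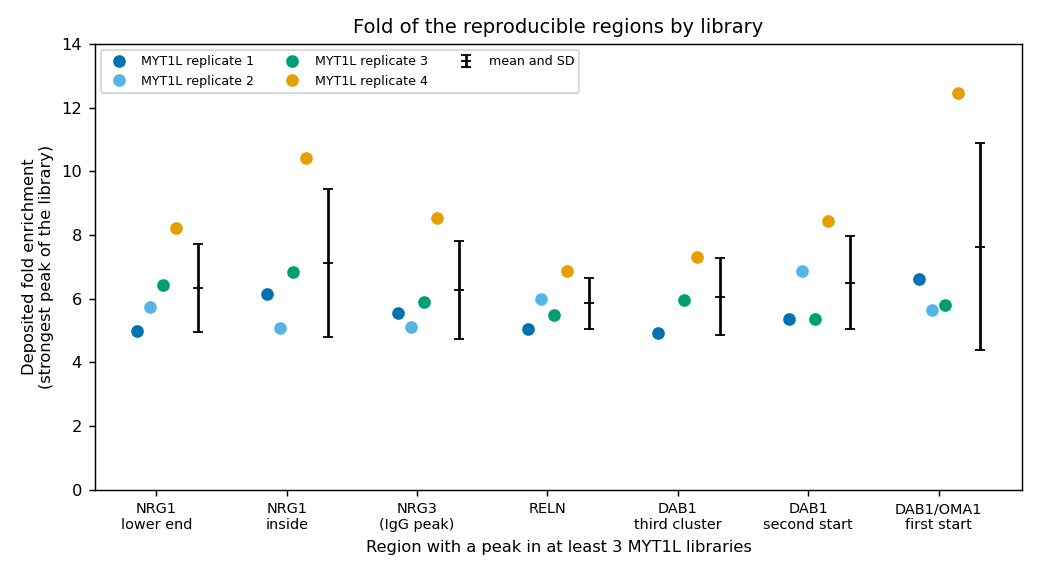
Deposited fold enrichment (vertical axis, ratio) of the strongest peak of each MYT1L library in the 7 regions with a peak in at least 3 libraries, with mean and SD over libraries. Replicate 4 has the highest point in every region, and at the start shared by DAB1 and OMA1 it reaches 12.5 against 5.63 to 6.62 in the others.

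Peaks at these genes were of ordinary strength for their lists. Folds ran from 3.56 to 12.5 over the 61 MYT1L peaks. The median percentile by fold was 59.3, 58.2, 69.3 and 42.7 in replicates 1 to 4, and 2 of the 61 peaks were in the top 10% of their list. Both were from replicate 4, at the start shared by DAB1 and OMA1 and at the inner region of NRG1. Replicate 4 had the highest fold in each of the 7 reproducible regions. Pileups at summits were small, with a median of 11, 8, 12 and 14 fragments in replicates 1 to 4, so counting error is large for any single peak.

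Reproducible regions lay close to starts. At the 6 members with a listed start, all 5 reproducible regions (that of NRG3 included) lay within 1 kb of one. So did 3 of 5 regions seen in 2 libraries and 3 of 16 seen in 1. Those 3 single-library regions were all at the short genes CXCR4 and CXCL12. In 263 genes of at least 500 kb with a listed start, the corresponding shares were 48.8% of 367 reproducible regions, 20.9% of regions in 2 libraries and 6.96% of those in 1. The shares fell in the same order at the members, short genes included, and at long genes in general. The 2 sets are unlike in length, and no test was made on so few regions.

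The promoter windows of 300 bp, from 250 bp before to 50 bp after a start, were compared with those of all protein-coding genes. A reproducible region without IgG peak overlapped 35.4% of 22198 windows. At the members it overlapped 6 of 14 windows, of which 5 were of DAB1 and 1 of RELN. The DAB1 windows at 57424060, 57424306 and 57424754 lay under the same region, so they are not separate calls. In that at 57424754 only replicate 3 had a peak. RELN had 52 CpG dinucleotides in its window, more than 99.0% of windows. The NRG3 windows had 43 and 45, and that of CXCL12 had 39, while the most upstream windows of CXCR4 and DAB1 had 27 each and that of ERBB4 had 19. Over all windows the share with a reproducible region was 0.422% with at most 4 CpG, 3.21% with 5 to 9, 26.9% with 10 to 19, 53.3% with 20 to 29 and 60.7% with 30 or more. In the 4 upper classes, in the same order, 0 of 1, 1 of 4, 2 of 3 and 3 of 6 member windows were under such a region. Of the 3 others in the top class, 2 are the NRG3 windows, whose region has an IgG peak, and 1 is that of CXCL12.

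MYT1-family proteins are known to recognise sequences with an AAGTT core, often within AAAGTTT. Both were searched on both strands in the 300 bp windows, and the shorter motif lies inside the longer, so each match of the longer counts for both. The longer, AAAGTTT, was found in 1 of the 14 member windows, that of the DAB1 start at 57423112, which had no peak, and in 3.66% of all windows. AAGTT was found in 8 of 14, against 30.05% of all windows, though several member windows overlap. Those 8 were all of CXCR4, DAB1 and ERBB4, so they do not stand for 8 genes. The windows of RELN, NRG3 and CXCL12 held none. Over all windows AAGTT was present in 20.5% of those under a reproducible region and 35.3% of the others. These shares were not matched for CpG number, with which the share of windows under a region rose. The part of base composition in this difference was not tested. A match is a description of letters and not a binding site.

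The other genes of these pathways were counted from lists. Of 16 further neuregulin and ErbB genes, 13 (81.3%) had at least 1 reproducible, IgG-free region in the window. By mean fold over the libraries with a peak, 3 or 4 depending on the gene, so that the order mixes unlike sets of libraries, the highest were at GRB2, an adaptor of receptor kinases (9.74 ± 5.80, SD, n = 3), ADAM10, a protease that sheds membrane proteins (8.25 ± 1.21, n = 4), and ERBB3, a neuregulin receptor (7.93 ± 1.43, n = 4). Of 16 further Reelin genes, 11 (68.8%) had one. The highest were at RAP1A, a small GTPase (9.65 ± 3.62, SD, n = 3), NDEL1, a partner of dynein (8.62 ± 2.28, n = 4), and PIK3R1, a subunit of PI3-kinase (8.04 ± 0.852, n = 4). The Reelin receptors VLDLR and LRP8, named here after their values were seen, each had 1 such region, with mean folds of 6.33 and 4.53. Of 30 further chemokine and tangential migration genes, 14 (46.7%) had one. The highest were at GNAI3 and GNAI1, inhibitory G protein subunits (9.58 ± 5.38, SD, n = 3, and 6.71 ± 2.54, n = 4), and MET, the receptor of HGF (6.94 ± 0.646, n = 3). No gene of the 3 lists passed the permutation test after adjustment. All 3 shares stand beside 48% of all protein-coding genes, and the lists were not matched to them for gene length. That share was 44.1% for genes under 100 kb and 75.2% for those of at least 500 kb. A window also takes in the 5 kb beyond each gene end, so a region counted here may lie at a neighbouring gene. Neighbours of these listed genes, ERBB3 included, were not checked.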

How the data were processed

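Each library has a deposited peak list; per the submitters' processing notes peaks were called with MACS2 on hg38. The aligner, threshold, control library and pooling are not given in the sources used here. Groups and replicate numbers follow the sample titles; peak names in the MYT1L lists carry sample numbers 1 higher. The fold enrichment (ratio), the −log10 p and −log10 q and the score are the authors' deposited values per peak. Fold and −log10 q were used for values, percentiles and minimums in each list. Folds of separately called lists were also set side by side, with mean, SD and Dixon's test, as a description, and fold was used with −log10 p to recover pileups; the deposited score was not used. Coordinates count from 1. Genes, starts and promoter sequences came from RefSeq tables of GRCh38.p14; exons and introns were not assigned.

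Peaks on chromosomes 1 to 22, X and Y were counted per gene with Python 3.11.15 and pandas 2.3.3, and regions were checked against bedtools 2.31.1. Peak numbers were compared by exact permutation over 15 splits, two-sided, for all protein-coding genes with Benjamini-Hochberg adjustment. Depth is not stated. A whole-number pileup fitting the deposited fold and −log10 p within 0.0005 was recovered for at least 99.8% of the peaks tried (those with a −log10 p of at most 200, for example 949 of 976 in IgG replicate 1), assuming the MACS formulas. The background is the low end of the recovered local backgrounds. Thinning, which matched only this background and not the unknown depth, reduced pileup and background binomially and applied the lowest deposited −log10 p of IgG replicate 2. Scripts were tested on simulated data. All 8 members are named, and of each pathway list the 3 genes with the highest mean fold. The members and lists were chosen with earlier results of these data known, so no count over them was tested.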

Additional observations from a re-analysis of the deposited data

Results flagged for a closer look

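The 4 MYT1L libraries were examined for a library far from the other 3 in 15 sets of values (Dixon's test at the 95% level, which flags about 1 set in 20 by chance), and 4 sets stood out. All 4 did so through MYT1L replicate 4. Its peak numbers were 2 at CXCR4, 2 at ACKR3 and 1 at CXCL12, against 0 in the other 3 libraries, and any set with 3 equal values and another that differs is marked by this test. Its fold at the start shared by DAB1 and OMA1 was 12.5, against 5.63, 5.80 and 6.62 in replicates 2, 3 and 1. Replicate 4 also had the longest list, 30086 peaks, though its estimated background of 0.895 fragments per position was below the 1.18 of replicate 1 and the 1.05 of replicate 3. The part of list length in these values was not tested.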

How the results depend on the processing

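The number of members with a reproducible region without IgG peak, 3, was 2 to 4 in 11 of 14 alternatives. It was 5 when 2 of 4 libraries sufficed, and ranged from 3 to 5 when a library was left out. The number of such regions, 6, was 12 with 2 of 4 libraries, 3 when only the 5 kb around gene ends counted, and 6 to 12 when a library was left out. It also depended on which MYT1L library was left out: 9 without replicate 1, 12 without replicate 2, 9 without replicate 3 and 6 without replicate 4. The reason for these moves was not tested. With a −log10 q of at least 5, RELN lost its call and NRG3 gained one, since its IgG peak was below the minimum; with equal numbers of top peaks NRG1 and DAB1 remained. The mean difference in peaks over the 8 genes, 14.75 per library, stayed positive in all 11 alternatives. It fell to 2.30 when libraries were thinned to the background of IgG replicate 2, and ranged from 10.5 to 17.5 when a library was left out. Thinning also turned the difference at NRG3 from 1 to -0.155. No protein-coding gene passed the permutation test in any alternative, and the design could not have passed one. Groups share the replicate numbers 1 and 2 with no stated pairing; with a replicate block the difference over the 8 genes was 10 peaks, and the smallest exact p was 0.5. Depth and the 2 IgG libraries both limit the comparison with IgG: the IgG peak at NRG3 had a pileup of 5 fragments, and the smallest p was 0.133.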

Other observations

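The nearest reproducible region without IgG peak outside the 5 kb windows lay close to RELN, 25.4 kb away at SLC26A5, and far from NRG3, 1152 kb away at GHITM. For the genes with no reproducible region, it lay 58.8 kb from CXCL12 (mean fold 4.99), 88.3 kb from CXCR4 (7.21), 293 kb from ERBB4 (6.48) and 503 kb from ACKR3, at COPS8 (6.81), each in 3 libraries. Those of CXCL12, CXCR4 and ERBB4 had no protein-coding gene within 1 kb. Whether any of them acts on these genes was not tested.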
